A study of Trametes versicolor with 17 samples.

Results

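LiP1, LiP2 and LiP12 are lignin peroxidase genes of the white-rot fungus Trametes versicolor that lie close together on scaffold 2. They were taken by their identifiers in the count tables (gene_2614, gene_2616 and gene_2618) and are 3 of 14296 gene models. They are also 3 of the 10 models that carry a LiP symbol. Of the 31 models with a LiP, MnP, VP, DyP or HTP symbol, called heme peroxidases below, they are 3. Their transcripts are described here in 17 libraries of mycelial pellets that grew in malt extract medium with or without the water fraction left by hydrothermal liquefaction of a waste.

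Lignin peroxidases are secreted enzymes that hold a heme group and use hydrogen peroxide to oxidise non-phenolic aromatic units of lignin, the polymer that stiffens wood. White-rot fungi carry them in families of similar genes beside manganese peroxidases, which oxidise Mn(II), versatile peroxidases, which act on both kinds of substrate, and laccases, which oxidise phenols with copper and oxygen. Their broad reach over aromatic compounds is the reason that such fungi are studied for the treatment of waste water.

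All samples carry 1 strain label, ASM 8036, which the series calls wild type, and all grew at 28 °C and 135 rpm in medium with 2% malt extract. The batch named main was harvested after 3 days (72 h) and has 3 libraries each without any addition (control) and with 5% of the aqueous phase from food waste (FW), from salad dressing waste (SD) or from algal biomass waste (AB). At 7 days, in a batch called preliminary, there were 2 control libraries and 3 with 5% AB, so day and batch cannot be told apart. The comparison of each aqueous phase with control asks which genes respond to it, and the series title asks which respond to several.

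Library totals were 15459249 to 18770043 counts at 3 days and 27654678 to 35223283 at 7 days, and a floor of 3 counts stood for at most 0.194 CPM (counts scaled to 1000000 per library). Replicates correlated across genes at 0.981 or more within each group at 3 days. At 7 days AB replicate 2 stood apart, with a correlation of 0.927 and 0.925 with the other AB libraries, which correlated at 0.985 with each other. The 2 controls of that day correlated at 0.953. The mycelial label was not checked against marker genes, since most models carry no gene name.

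The 3 genes run in the same direction within 13.4 kb. LiP1 (TRAVEDRAFT_43576) spans scaffold 2 from 2744080 to 2745520, LiP2 (TRAVEDRAFT_43578) from 2752329 to 2753791 and LiP12 (TRAVEDRAFT_114944) from 2756035 to 2757513, all on the plus strand. Between LiP1 and LiP2 lies TRAVEDRAFT_62859 (2746678 to 2750199), on the same strand. Between LiP2 and LiP12 lies TRAVEDRAFT_26611 (2755277 to 2756035) on the minus strand, and this is the model that LiP12 overlaps. The overlap is 1 base, the first of LiP12. TRAVEDRAFT_26611 had 0 to 3 counts in every library, against 54 to 286 for LiP12, so few reads were assigned to the partner. In the AB libraries at 7 days it had 0 counts, which allows at most 0.0852 to 0.108 CPM.

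Each of the 3 models has 7 exons, and the 4 inner ones after the first have the same lengths in all, 208, 135, 547 and 75 bases. The first exon has 64 bases in LiP1 and 61 in LiP2 and LiP12, the sixth has 65 in all, and the last has 10, 13 and 28 bases. That run of 4 exon lengths occurred in 7 of the 14296 models, which are these 3 with LiP6, LiP8, LiP10 and VP1, a versatile peroxidase gene also on scaffold 2 (1841529 to 1842986). LiP6, on scaffold 12, matched LiP12 in the length of every exon. Total exon length was 1104, 1104 and 1119 bases for LiP1, LiP2 and LiP12, so levels per length and levels in CPM order these genes alike. How far reads could be shared between such copies was not tested.

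LiP2 was the member with the largest changes. At 3 days it was higher under FW and SD than in the controls and than under AB, by 6.3- to 14.3-fold, and it was not called between AB and control. LiP1 was lower under AB than in the other 3 groups. LiP12 was lower under FW than in the controls. Of 24 tests of the 3 genes over 8 comparisons these made 8 calls, at an adjusted p of 0.05 in edgeR's quasi-likelihood test with Benjamini-Hochberg adjustment over all genes tested. Of all genes 45.8%, 21.1% and 62.4% were called for FW, SD and AB against control at 3 days, 25.4% between FW and SD, 42.1% between FW and AB, 54.2% between SD and AB, 3.28% at 7 days and 27.9% for the difference between days, so the number of calls is near what all genes show. In bulk pellets fewer expressing cells and less RNA per cell cannot be told apart, and this holds for every value below.

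LiP2 had 132, 88 and 149 counts in control replicates 1, 2 and 3 at 3 days, or 7.26, 5.82 and 8.78 CPM. Under FW it had 1585, 332 and 515 counts, or 89.6, 19.9 and 29.5 CPM. Under SD it had 630, 4048 and 428 counts, or 32.4, 207 and 22.0 CPM. Every FW and SD library was above every control library, but within each of these groups 1 library was far above the others, FW replicate 1 and SD replicate 2. Under AB the values were 6.55, 5.67 and 6.10 CPM, which overlapped with the controls, and replicate 2 was below the lowest control.

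Against control, LiP2 rose under FW from 7.29 ± 1.48 to 46.3 ± 37.8 CPM (standard deviation, n = 3), which is 2.66 as a log2 fold change (SE 0.76, 95% interval 1.03 to 4.30, adjusted p = 0.0115 by edgeR). Among all 10838 genes tested, 22.4% were called higher in this comparison and 45.8% in either direction, and the groups did not overlap for 53.0%. Under SD it rose to 87.2 ± 104 CPM, or by 3.58 as a log2 fold change (SE 0.78, interval 1.90 to 5.26, adjusted p = 0.00653 by edgeR), where 10.3% of genes were called higher, 10.9% lower and 21.1% in either direction, and groups for 35.9% did not overlap. The standard deviation over these libraries exceeds their mean. Under AB the log2 fold change was -0.26 (interval -1.92 to 1.40, adjusted p = 0.783 by edgeR), in a comparison that called 62.4% of genes. Its SE of 0.77 comes from a spread estimated over all 4 groups, FW and SD among them. Fitted on the AB and control libraries alone, the value was -0.24 with an SE of 0.19 (adjusted p = 0.298 by edgeR).

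The size of both rises rested on single libraries. Without FW replicate 1 the log2 fold change under FW was 1.79 and the gene was no longer called (adjusted p = 0.0634 by edgeR). Without SD replicate 2 that under SD was 1.92 and the call held (adjusted p = 0.0199). Leaving out SD replicate 2 also left the FW fold change at 2.71 with a smaller SE of 0.46 (adjusted p = 0.000442), since the groups share an estimate of the spread. The highest LiP2 library was 4.51 times the lowest under FW and 9.42 times under SD, against medians of 1.33 in each group over 9944 and 9984 genes of at least 1 CPM. Those ratios were larger than in 99.5% and 99.9% of these genes. In the controls and under AB the LiP2 ratio was 1.51 and 1.16.

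Between the phases, LiP2 was higher under FW than under AB by 2.92 on the log2 scale (SE 0.77, adjusted p = 0.00802 by edgeR) and higher under SD than under AB by 3.83 (SE 0.79, adjusted p = 0.00120). Those comparisons called 42.1% and 54.2% of all genes tested, with 21.9% and 28.3% higher and 20.2% and 25.9% lower. Both calls held without any 1 library, with adjusted p up to 0.0452 and 0.00711, but their sizes did not. Without FW replicate 1 the former was 2.02, and without SD replicate 2 the latter was 2.15. FW and SD were not shown to differ, with a log2 fold change of -0.91 (interval -2.40 to 0.58, adjusted p = 0.357 by edgeR) in a comparison that called 25.4% of genes and in which the groups of 39.6% did not overlap. Its sign turned without SD replicate 2, to 0.79.

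**Figure D1:**
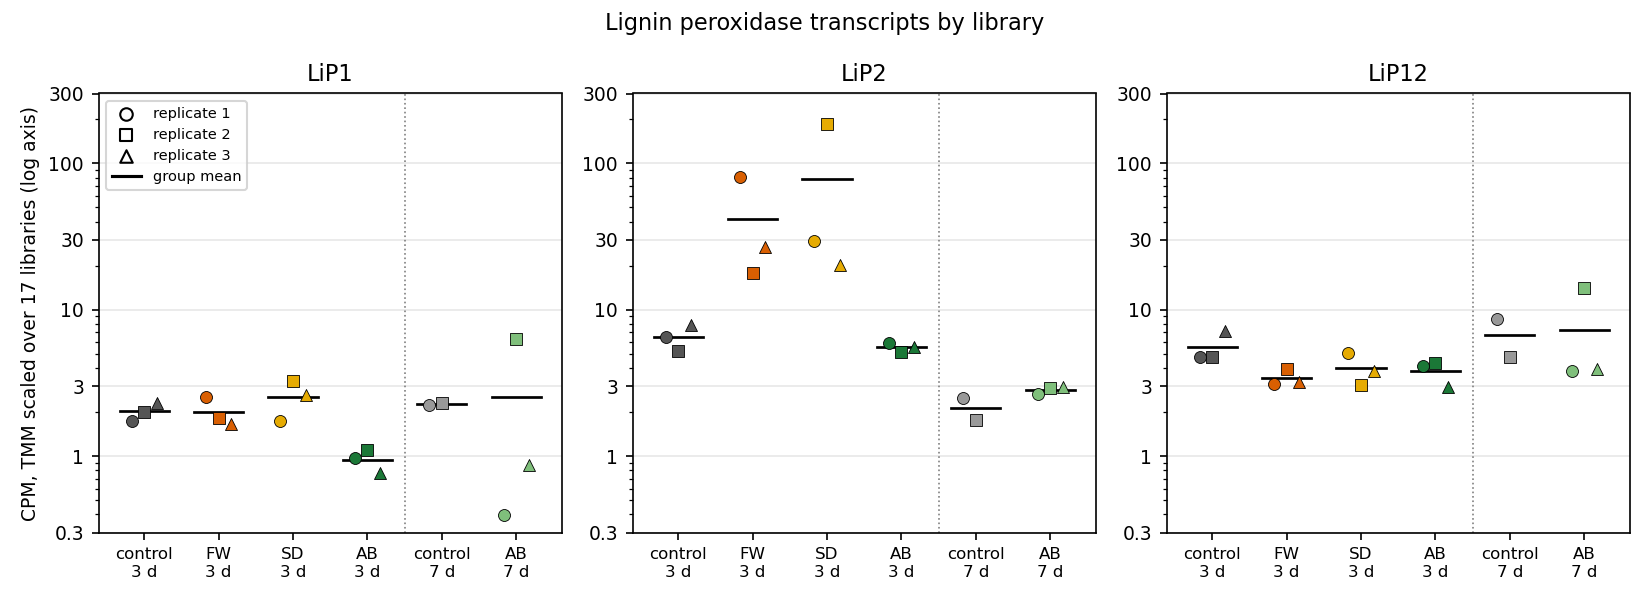
CPM of LiP1, LiP2 and LiP12 on a log axis, TMM scaled over all 17 libraries, by group. Each point is a library (shape: replicate number), bars are group means, and the dotted line parts 3 from 7 days. LiP2 stands above its controls in all 6 FW and SD libraries at 3 days, and LiP1 below them in all 3 AB libraries.

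LiP1 was scarcer. In control replicates 1, 2 and 3 at 3 days it had 35, 34 and 44 counts, or 1.93, 2.25 and 2.59 CPM, and under AB 17, 20 and 14 counts, or 1.07, 1.21 and 0.846 CPM. All AB libraries lay below all controls, and each rests on few reads, as 14 counts carry an exact Poisson 95% interval of 7.65 to 23.5, counting error alone. LiP1 fell under AB from 2.26 ± 0.334 to 1.04 ± 0.182 CPM (standard deviation, n = 3), with -1.11 as log2 fold change (SE 0.31, interval -1.77 to -0.45, adjusted p = 0.00671 by edgeR), beside 32.6% of all genes called lower and 69.0% without overlap.

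Under FW the LiP1 values were 2.83, 2.04 and 1.83 CPM and under SD 1.90, 3.64 and 2.88 CPM, and both groups overlapped with the controls. The log2 fold changes were -0.01 (interval -0.62 to 0.60, adjusted p = 0.974) and 0.31 (interval -0.28 to 0.91, adjusted p = 0.450 by edgeR). Against AB, LiP1 was higher under FW by 1.10 (SE 0.31, adjusted p = 0.0115) and under SD by 1.42 (SE 0.30, adjusted p = 0.00142), with no overlap in either case, as for 55.8% and 63.6% of all genes. The former call was lost without FW replicate 1 (adjusted p = 0.0550) or AB replicate 3 (adjusted p = 0.0506). Between FW and SD the log2 fold change was -0.33 (adjusted p = 0.410).

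LiP12 had 97, 80 and 135 counts in control replicates 1, 2 and 3 at 3 days, or 5.34, 5.30 and 7.96 CPM, and 61, 73 and 62 counts under FW, or 3.45, 4.37 and 3.55 CPM. The groups did not overlap, as for 53.0% of all genes tested, and control replicate 3 was well above the other controls. LiP12 fell under FW from 6.20 ± 1.52 to 3.79 ± 0.506 CPM (standard deviation, n = 3), with -0.71 as log2 fold change (SE 0.24, interval -1.24 to -0.18, adjusted p = 0.0294 by edgeR), where 23.4% of all genes were called lower. That call was lost without control replicate 3 (log2 fold change -0.49, adjusted p = 0.146), FW replicate 1 (adjusted p = 0.109) or FW replicate 3 (adjusted p = 0.0765).

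Under SD LiP12 stood at 5.55, 3.43 and 4.16 CPM and under AB at 4.54, 4.76 and 3.26 CPM. The AB libraries lay below the controls without overlap, where the groups of 69.0% of all genes tested did not overlap. Of the SD libraries 1 lay among the controls. The log2 fold changes were -0.50 (interval -1.02 to 0.02, adjusted p = 0.157) under SD and -0.57 (interval -1.09 to -0.04, adjusted p = 0.0569 by edgeR) under AB, and neither was called, although the AB value was without control replicate 2 (adjusted p = 0.0463). Among the aqueous phases LiP12 differed by log2 fold changes of -0.21 for FW against SD, -0.14 for FW against AB and 0.07 for SD against AB, with adjusted p of 0.565, 0.673 and 0.837.

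**Figure D2:**
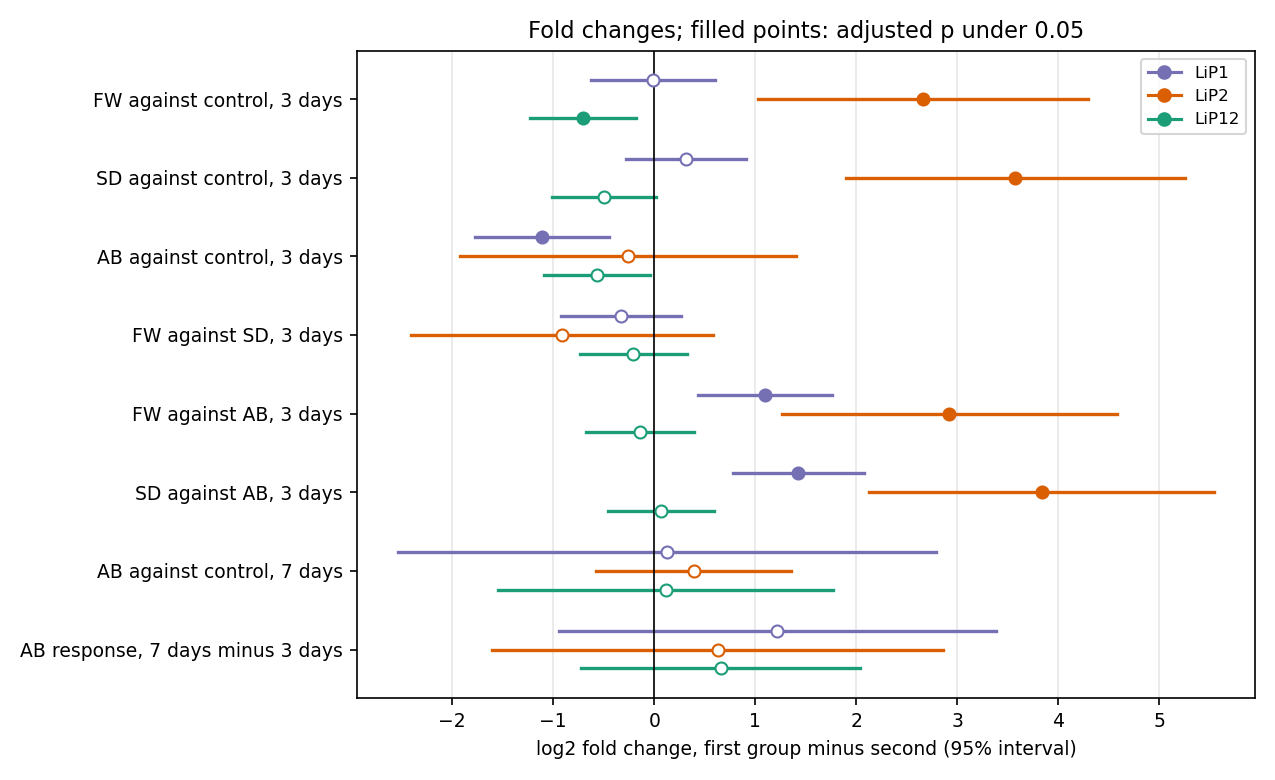
Log2 fold changes with 95% intervals for LiP1, LiP2 and LiP12 in the 8 comparisons, with filled points at an adjusted p under 0.05. LiP2 has the 4 largest values, from 2.66 to 3.83, and the widest intervals at 3 days, and no interval of the AB comparisons involving 7 days excludes 0.

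The balance among the 3 genes was also read within each library, where scaling between libraries cancels. Per exon length, LiP2 was 2.59 to 3.77 times LiP1 in the controls at 3 days, 9.76 to 31.7 times under FW, 7.64 to 57.0 times under SD and 4.70 to 7.21 times under AB. At 3 days the ratio was thus higher in every treated library than in every control. Under AB this went with lower LiP1 (log2 fold change -1.11), while LiP2 was not called (-0.26). How often the ratios of other gene pairs keep the groups apart was not tested. At 7 days it was 0.765 and 1.13 in the controls and 0.461 to 6.70 under AB, with overlap (p = 0.6, exact permutation test). In the controls LiP2 was 1.11 to 1.38 times LiP12, and under FW and SD 4.61 to 26.3 and 5.36 to 61.2 times. Each of these 3-day differences of mean log2 ratio had p = 0.1 in a two-sided exact permutation test, the smallest that 3 libraries against 3 allow, and p = 0.171 after adjustment over 12 such tests. Under AB LiP2 was 1.21 to 1.90 times LiP12, overlapping with the controls (exact p = 0.2). LiP12 to LiP1 was 2.32 to 3.03 in the controls, 1.20 to 2.12 under FW and 3.81 to 4.18 under AB (exact p = 0.1 for both), and 0.931 to 2.88 under SD, overlapping with the controls (exact p = 0.3). At 7 days the groups overlapped for both ratios with LiP12 (exact p = 0.6 for LiP2 to LiP12 and 0.4 for LiP12 to LiP1).

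At 7 days LiP2 was low in all libraries, with 77 and 39 counts in the controls (1.97 and 1.42 CPM) and 67, 59 and 82 counts under AB (2.09, 2.28 and 2.31 CPM). The AB libraries were just above the controls without overlap, as were the groups of 40.6% of all 10192 genes tested there, and the log2 fold change of 0.39 (interval -0.58 to 1.36, adjusted p = 0.628 by edgeR) was not called. Of all genes 3.28% were called at 7 days, 0.873% higher and 2.40% lower. LiP1 had 68 and 51 counts in the controls (1.74 and 1.86 CPM) and 10, 128 and 24 under AB (0.311, 4.95 and 0.675 CPM). LiP12 had 264 and 104 counts in the controls (6.75 and 3.78 CPM) and 96, 286 and 110 under AB (2.99, 11.1 and 3.10 CPM).

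The high AB library of LiP1 and of LiP12 was in both cases replicate 2, the one that stood apart across all genes. With it the log2 fold changes were 0.13 (interval -2.54 to 2.79) for LiP1 and 0.11 (interval -1.54 to 1.77) for LiP12, with adjusted p of 0.960 and 0.942 by edgeR. Without it they were -1.85 (SE 0.52, adjusted p = 0.0944) and -0.80 (SE 0.39, adjusted p = 0.247). For LiP2 the value without it was 0.37. No lignin peroxidase was called at 7 days among the 8 of 10 that were tested there by edgeR. Of these, 0 had an unadjusted p under 0.05, beside 2153 of all 10192 genes tested. With 8 genes this says little about the family.

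The AB response at 7 days minus that at 3 days was 1.22 on the log2 scale for LiP1 (interval -0.95 to 3.38, adjusted p = 0.402), 0.63 for LiP2 (interval -1.60 to 2.86, adjusted p = 0.705) and 0.66 for LiP12 (interval -0.72 to 2.04, adjusted p = 0.487 by edgeR). None was called, where 27.9% of 11057 genes were. Without AB replicate 2 of 7 days the values for LiP1 and LiP12 were -0.72 and -0.23.

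Scaled over all 17 libraries, the 6 groups could be put in order for each gene, as a description across 2 batches. LiP2 ran from SD at 3 days (78.6 ± 93.2 CPM) over FW (41.8 ± 34.0), control at 3 days (6.53 ± 1.32), AB at 3 days (5.57 ± 0.405) and AB at 7 days (2.84 ± 0.168) to control at 7 days (2.15 ± 0.526, standard deviation with n = 3, or 2 for that control). SD and FW overlapped, as did control and AB at 3 days, while the other neighbours did not. LiP1 lay between 2.01 and 2.54 CPM on average in 5 groups that overlapped with their neighbours, and AB at 3 days had the lowest mean, 0.949 ± 0.166 CPM, without overlap with FW next to it. The place of AB at 7 days (2.53 ± 3.30 CPM) rested on replicate 2 at 6.34 CPM, while the other libraries, at 0.395 and 0.864 CPM, were below the mean of AB at 3 days. LiP12 ran from 7.31 ± 5.94 CPM under AB at 7 days to 3.42 ± 0.436 CPM under FW, with overlap between all neighbours. Its first place rested on the same replicate 2, at 14.2 CPM against 3.79 and 3.96 CPM in the other AB libraries of that day. The order across days also depended on the scaling. On unscaled library sizes LiP12 was highest in the controls at 3 days, at 5.97 CPM. It had 5.82 CPM in the controls at 7 days and 5.48 CPM under AB at 7 days. LiP1 then had 2.18 CPM in the controls at 3 days and 1.88 CPM in those at 7 days, the reverse of their order above.

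Levels per length set the 3 genes among the other lignin peroxidases. As CPM per kb of exon, LiP2 was the most abundant of the 10 genes in the controls at 3 days (5.92 ± 1.20, n = 3), followed by LiP12 (4.96 ± 1.22), and LiP1 had a mid rank (1.83 ± 0.269). LiP2 made up 22.3% to 27.2% of the summed family level in those controls and 23.2% to 25.1% under AB. Under FW its share was 44.8% to 81.5% and under SD 51.7% to 90.0%. The summed level of the family was 21.2 to 26.2 in the controls, 36.0 to 89.7 under FW, 35.2 to 187 under SD and 19.6 to 21.7 under AB.

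At 7 days LiP12 had the highest mean of the family in both groups, 5.97 ± 2.46 (n = 2) in the controls and 6.53 ± 5.31 (n = 3) under AB. Under AB this rested on replicate 2, with LiP12 at 3.39, 12.7 and 3.54 in replicates 1, 2 and 3 and LiP6 at 3.35, 5.75 and 4.12. LiP2 had 9.80% and 10.1% of the family level in the 2 controls. By rank among all genes with counts in a library, LiP2 stood at percentile 37.6 to 44.7 in the controls at 3 days, 60.2 to 85.6 under FW and 61.7 to 93.8 under SD. LiP1 stayed at percentile 28.6 or lower in all 3-day libraries, and LiP12 at 43.0 or lower.

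**Figure D3:**
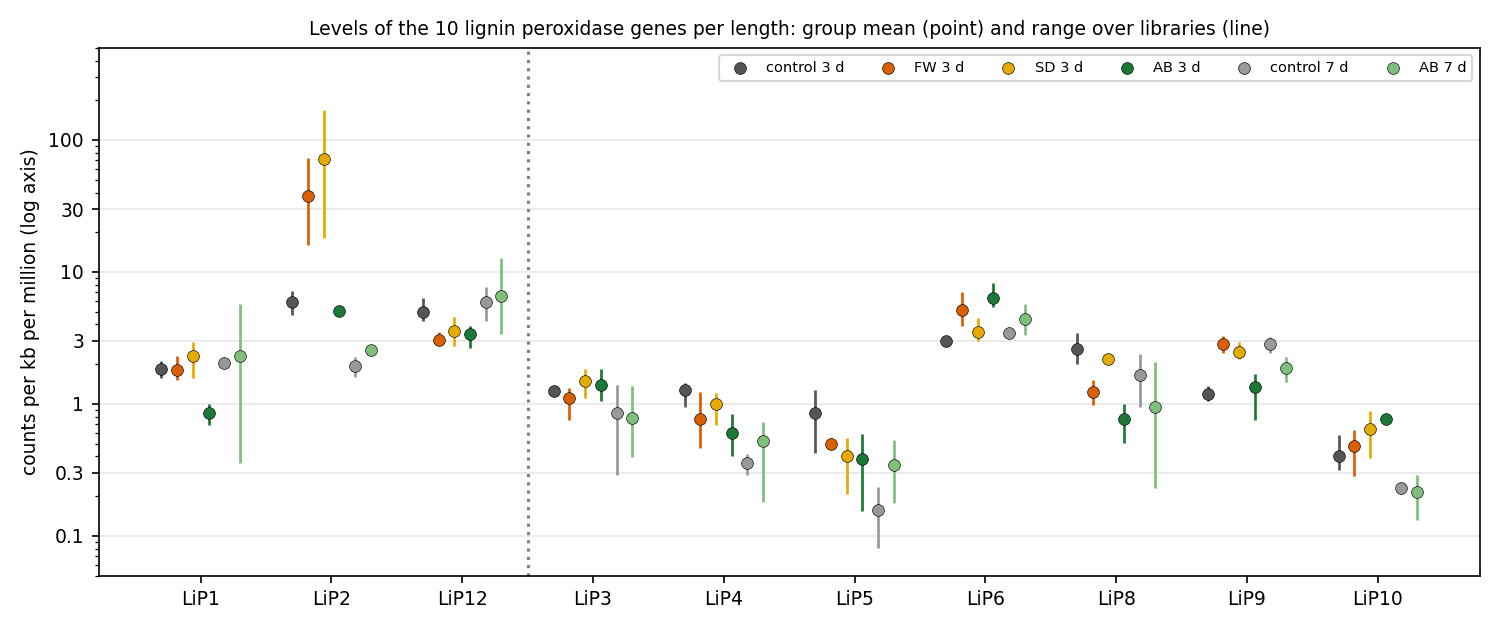
Level per exon length of the 10 lignin peroxidase genes on a log axis, as CPM per kb scaled over 17 libraries. Points are group means and lines the range over the libraries of a group. The dotted line parts the 3 genes of the locus from the other 7. The FW and SD means of LiP2, at 37.9 and 71.2, are above every other mean, which reach 6.53 for LiP12 at 7 days.

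The other 7 LiP genes lie on scaffolds 12 and 13. Under FW, LiP9 (log2 fold change 1.26) and LiP6 (0.75) rose and LiP8 (-1.11) fell among them, with adjusted p of 0.00308, 0.0342 and 0.00641 by edgeR. Under SD, LiP9 rose by 1.04 (adjusted p = 0.0205). Under AB, LiP6 rose by 1.06 (adjusted p = 0.00364), while LiP8 (-1.80, adjusted p = 0.000188) and LiP4 (-1.10, adjusted p = 0.0340) fell. LiP3, LiP5 and LiP10 were not called in any comparison that tested them. LiP9 was thus called higher under FW and SD, as LiP2 was, but at 1.45 ± 0.196, 3.45 ± 0.518 and 2.98 ± 0.450 CPM in the controls, FW and SD its libraries kept close together. Leaving out single libraries ended the LiP6 call under FW (adjusted p up to 0.136), the LiP9 call under SD (up to 0.0715) and the LiP4 call under AB (up to 0.121).

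For all 10 LiP genes 3 rose and 2 fell under FW, 2 rose under SD, and 1 rose and 3 fell under AB, beside 45.8%, 21.1% and 62.4% of all genes called in either direction, so the shares called are near that background for FW and SD and below it for AB. Their median log2 fold changes were -0.10, 0.21 and -0.41, beside -0.01, -0.01 and -0.06 over all genes tested. Of the 29 tested heme peroxidases, a list that holds the LiP genes, 14 rose and 3 fell under FW (median 0.51), 8 rose and 2 fell under SD (0.30), and 6 rose and 13 fell under AB (-1.10), read against those same shares. The largest rise of the list was that of the manganese peroxidase MnP13 under FW, LiP2 itself under SD and MnP1s under AB (log2 fold changes 6.78, 3.58 and 5.07). The largest falls were those of LiP8, the dye-decolorising peroxidase DyP1 and the versatile peroxidase VP2 (-1.11, -0.87 and -8.26). Of the 8 laccases and multicopper oxidases none rose and 1, 1 and 4 fell, TvLac7 furthest in each case (-1.76, -4.72 and -7.13). All these lists were chosen with results of these data known.

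At 7 days 2 of 22 tested heme peroxidases fell, VP3at furthest (-6.20), where 2.40% of all genes were called lower. Of the 8 laccases and multicopper oxidases 3 fell, TvLac5 furthest (-4.11). VP3at stood at 114 ± 124 CPM in the controls (standard deviation, n = 2) and 1.55 ± 0.606 CPM under AB (n = 3). Its 2 controls were thus far apart, and the size of its fall rests on the higher one. These comparisons against control share their control libraries at 3 days, so the counts for FW, SD and AB are not independent of each other.

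Of the models around the locus, the nearest tested ones were not called against control at 3 days. TRAVEDRAFT_26611, which overlaps LiP12, was not tested. Farther off, 1 model was called higher under both FW and SD. TRAVEDRAFT_69327, TRAVEDRAFT_161451 and TRAVEDRAFT_62860 were called higher under FW but not SD (log2 fold changes under FW 0.46, 2.10 and 0.40). TRAVEDRAFT_62859, between LiP1 and LiP2, stood at 30.8 ± 6.42 CPM in the controls, 29.8 ± 1.67 under FW, 30.2 ± 5.75 under SD and 34.1 ± 1.26 under AB, with log2 fold changes of -0.05, -0.03 and 0.15 and adjusted p of 0.838, 0.929 and 0.454 by edgeR. Of the 12 models from 5 before LiP1 to 5 after LiP12, the 3 members aside, 9 were tested at 3 days. Of these, 4 rose and 1 fell under FW, 1 rose under SD and 3 rose under AB, against 45.8%, 21.1% and 62.4% of all genes called, with medians of -0.0046, -0.03 and 0.24. The model that rose under SD was TRAVEDRAFT_161448, the farthest of the 5 before LiP1, which also rose under FW and AB. The nearest gene after LiP12, 1949 bases on, is MnP2s, a manganese peroxidase gene named here after its values were seen. Against control it stood at -0.11, -0.17 and 0.26 on the log2 scale for FW, SD and AB, none of them called (adjusted p = 0.680, 0.569 and 0.256).

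**Figure D4:**
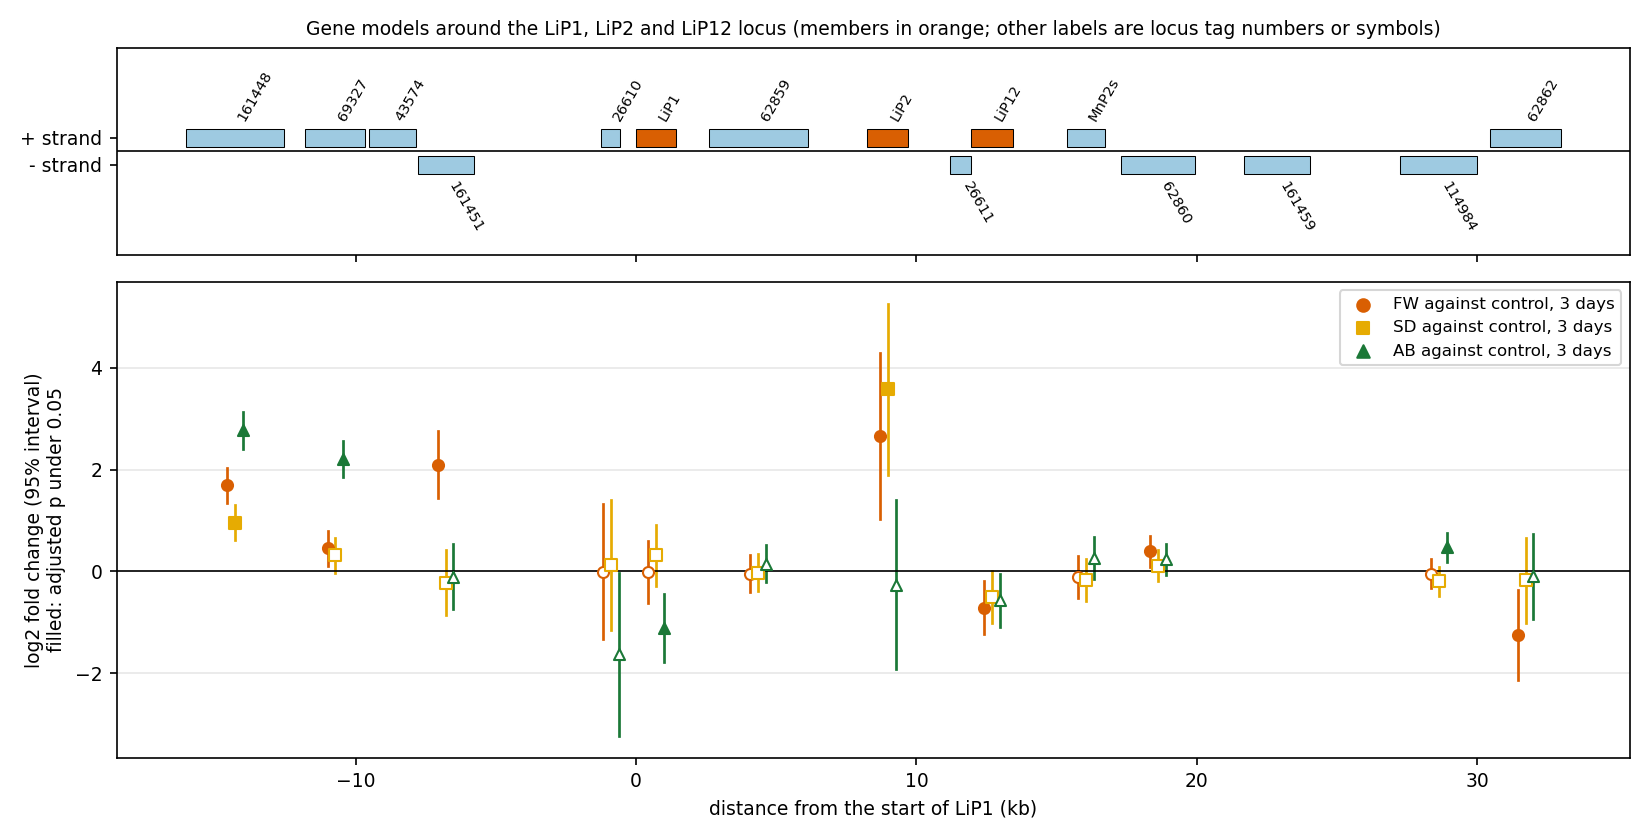
Gene models by strand against distance from the start of LiP1 (kb), above the log2 fold change of each aqueous phase against control at 3 days with 95% intervals. Filled points have an adjusted p under 0.05, and models without points were not tested. LiP2 rises under FW and SD between TRAVEDRAFT_62859 and LiP12, neither of which is called higher.

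For each member the 3 genes of most similar profile were sought by Pearson correlation of log2(CPM + 0.5) over the 12 libraries at 3 days, among the 10056 genes whose mean reached 1 CPM. These values are a description, and the libraries share groups. For LiP2 the nearest was MnP5s (r = 0.93), a manganese peroxidase gene on scaffold 2 (2440421 to 2442180), 310 kb from LiP2. With group means taken out r was 0.81, and without FW replicate 1 and SD replicate 2 it was 0.94. MnP5s had 2.75, 1.92 and 2.65 CPM in control replicates 1, 2 and 3, 26.6, 3.77 and 13.7 CPM under FW, 16.4, 25.3 and 6.32 CPM under SD, and 0.819, 0.844 and 0.967 CPM under AB. Its highest library was the same as that of LiP2 in both FW and SD, and its lowest was too. MnP5s was picked for its likeness to LiP2 in these libraries, so its log2 fold changes against control there are given without a test. They were 2.58 under FW, 2.71 under SD and -1.48 under AB. At 7 days, not used for the pick, MnP5s had 3.14 and 1.13 CPM in the controls. Under AB it then had 0.125, 0.619 and 0.338 CPM. Its log2 fold change at 7 days was -2.58, not called (adjusted p = 0.131 by edgeR), against 0.39 for LiP2.

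**Figure D5:**
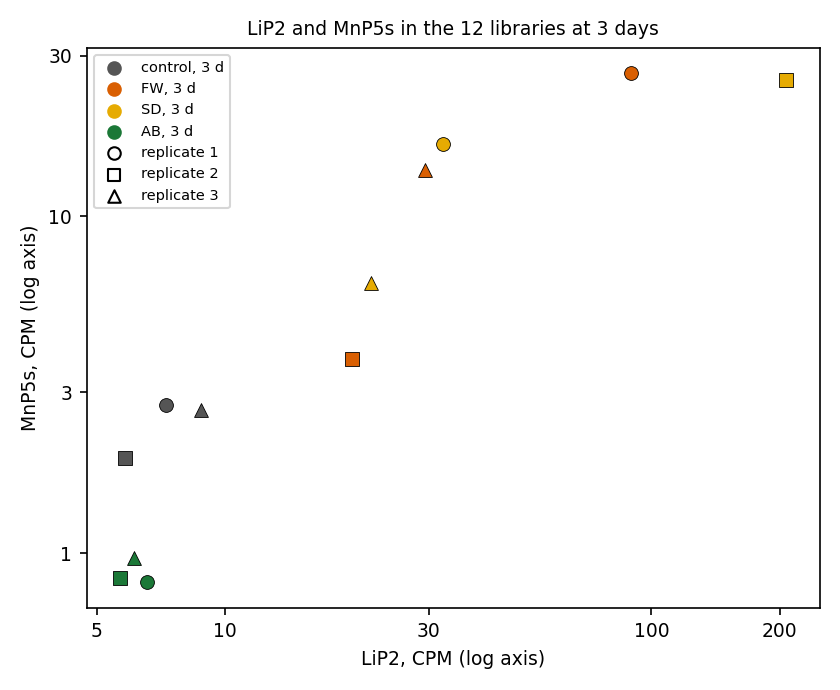
CPM of MnP5s against CPM of LiP2 in the 12 libraries at 3 days, both on log axes, with colour for group and shape for replicate number. Control and AB libraries lie at the lower left, and FW replicate 1 and SD replicate 2 at the upper right.

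After MnP5s came TRAVEDRAFT_30448 (r = 0.90, and 0.71 with group means taken out) and TRAVEDRAFT_58347 (0.89 and 0.69). For LiP1 the nearest were TRAVEDRAFT_55873, TRAVEDRAFT_52351 and TRAVEDRAFT_33315 (r = 0.94, 0.94 and 0.94), each lowest under AB. For LiP12 they were TRAVEDRAFT_167384, TRAVEDRAFT_41392 and TRAVEDRAFT_31247 (0.89, 0.86 and 0.85), each highest in the controls. None of these 8 genes carries a symbol. Among the members themselves, r over the 12 libraries was 0.70 for LiP1 and LiP2, 0.08 for LiP1 and LiP12, and -0.47 for LiP2 and LiP12. With group means taken out these were 0.66, -0.17 and -0.40. SD replicate 2 was the highest 3-day library for both LiP1 and LiP2, and the lowest SD library for LiP12.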

How the data were processed

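The deposited tables hold read counts per gene model as whole numbers, with no normalisation. HISAT2 and featureCounts were used, per the submitters' processing notes, while their versions, the genome build, the strand mode and the handling of multi-mapping reads were not given in the sources used here. Libraries were made from polyadenylated RNA (200 ng of total RNA), per the labels' protocols. Models were named by start and end from RefSeq (Trametes versicolor v1.0, a strain named otherwise than the samples), where 14214 of 14296 matched. No sequence was used.

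For each comparison edgeR 4.0.16 in R 4.3.3 was fitted to all genes (TMM scaling, default filter by group, quasi-likelihood F test, two-sided, Benjamini-Hochberg), over the 12 main libraries, the 5 preliminary ones or all 17, which tested 10838, 10192 and 11057 genes. SE is the absolute log2 fold change over the square root of F, and intervals use the fit's t quantile. Exon length in bases, of unit other, is the deposited length column. The code was tested on simulated data. Alternatives were RLE, DESeq2 1.42.0, other filters, a robust fit, a replicate block, compared groups alone and leaving out each library.

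The members and lists were chosen with earlier results of these data known. Genes named were the members, all LiP genes, models between or overlapping members, the 3 most similar genes per member, and the largest rise and fall of each list. Titles give each library as a biological replicate, and what a replicate was (a culture or a flask) is not stated, so p-values cover only the spread among these libraries. Count intervals cover counting error alone.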

Additional observations from a re-analysis of the deposited data

Results flagged for a closer look

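The 3 lignin peroxidases gave no value that met a rule for a closer look, as groups of 3 or fewer libraries were too small to test for an outlying library and in none of them was the AB response called different between the days. Of the 9 neighbouring models tested, the response at 7 days minus that at 3 days was called for 3. Among all genes 27.9% were called there, so this count is near that background. The 3 models are named here after their values were seen. TRAVEDRAFT_161448 had a value of -2.11 on the log2 scale (adjusted p = 0.00544 by edgeR). TRAVEDRAFT_161451 had one of 3.92 (adjusted p = 0.0115), and MnP2s one of -1.86 (adjusted p = 0.00759). In each case day and batch cannot be told apart.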

How the results depend on the processing

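Of 444 values of the 3 genes under an alternative, 418 kept their direction and their side of the threshold, 19 changed sign, 6 lost a call and 1 gained one. All 8 calls held under RLE, DESeq2, the other filters, the robust fit and the replicate block. The log2 fold change of LiP1 for FW against control (-0.01) changed sign under RLE (0.0010), DESeq2 (0.0013) and a filter at 1 CPM (0.024). RLE moved the median of all genes by 0.029 or less.

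Leaving out single libraries gave these log2 ranges. For FW against control they were -0.19 to 0.11 for LiP1, 1.79 to 3.08 for LiP2 and -0.81 to -0.49 for LiP12. LiP12 ran from -0.67 to -0.34 for AB against control, -0.34 to 0.021 for FW against SD and -0.15 to 0.21 for SD against AB. LiP2 ran from -1.80 to 0.79 for FW against SD, and LiP1 from 0.90 to 1.22 for FW against AB. At 7 days LiP1 ran from -1.85 to 0.65 and LiP12 from -0.80 to 0.62, and for 7 minus 3 days LiP1 from -0.72 to 1.73 and LiP12 from -0.23 to 1.16. The cause was not tested.

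The number of all genes called ran from 1361 (without control replicate 3) to 2407 for SD against control, and from 0 (without control replicate 2) to 689 (without AB replicate 2) at 7 days, against 334 with all libraries, 1360 by DESeq2 and 91 with the replicate block. Leaving out a 7-day control leaves 1 library, which is assumed to vary like those of AB.

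Same-numbered libraries deviated together in 7 of 18 pairs at 3 days (correlations -0.217 to 0.430, where a pair counts above 0.1). Unlike-numbered libraries of different groups did so in 11 of 36 pairs (-0.452 to 0.370). For replicates 2 and 3 of control, FW and SD, same-numbered pairs lay at 0.212 to 0.430. Pairs of number 2 with number 3 in these groups lay at -0.452 to -0.259. Same-numbered pairs of AB with these libraries lay at -0.205 to 0.019. Whether the numbers pair the samples was thus not settled. The replicate block changed 0 of 24 calls of the 3 genes, and turned LiP1 at 7 days to -0.42. By Spearman correlation 1 of the 3 most similar genes stayed for LiP1 and for LiP2. LiP1, with as few as 10 counts in a library, is limited by depth, and the 7-day groups by their size and by AB replicate 2.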

Other observations

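The models before LiP1 held the largest changes around the locus apart from LiP2, and were named after their values were seen. TRAVEDRAFT_161448, the farthest of the 5 models before LiP1, rose from 40.0 CPM in the controls to 129 CPM under FW, 77.8 CPM under SD and 272 CPM under AB (log2 fold changes 1.69, 0.96 and 2.77, adjusted p up to 0.00142 by edgeR). TRAVEDRAFT_69327, the next model, rose under AB from 14.5 to 66.9 CPM (2.20, adjusted p = 1.2e-07) and by 0.46 under FW (adjusted p = 0.0308). TRAVEDRAFT_161451 rose from 54.2 to 232 CPM under FW (2.10, adjusted p = 0.000121) and was not called under SD (-0.22) or AB (-0.10).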
